A study of Caenorhabditis elegans with 4 samples.

Results

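In chromatin immunoprecipitation sequencing (ChIP-seq) of the C. elegans regulator UNC-39, 2926 autosomal peaks had their summit in an exon and outside promoters. They made up 28.6% of the 10244 autosomal peaks in the pooled peak list, which held 12797 peaks in all. A peak was taken when its summit, the position of highest signal, lay in an exon of a protein-coding gene. The summit also had to lie outside every promoter window, taken as the 1000 bp before and the 200 bp after any protein-coding transcript start. Peaks on the X chromosome and on mitochondrial DNA were not taken. The other autosomal peaks comprised 3142 promoter peaks, 2339 intronic peaks and 1837 intergenic peaks, by the same windows.

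All libraries came from 1 group, so no treated or mutant worms were compared. The worms were whole L3 larvae of strain OP186, of mixed sex, with the unc-119(ed3) III mutation and the transgene wgIs186. This transgene makes UNC-39 with GFP-FLAG at its C terminus. There were 4 biological replicates, the chromatin was sheared by sonication with a microtip, and the antibody entry reads unc-39. Whole animals were used, so a site bound in few cells and a site bound weakly in many cells cannot be told apart.

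UNC-39 is a SIX-class homeodomain protein, one of a family whose members bind DNA and control transcription during development. In C. elegans it is needed for the differentiation of mesodermal cells and for cell migration. Regulatory DNA of worm genes is most often found just upstream of the start or in introns, while exons chiefly carry the code for protein and the untranslated ends of the transcript.

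The summit sequences of 6 of the strongest coding peaks are printed below, because they show how the base composition at these summits ranged from G+C-rich to repetitive and A+T-rich, and from above to below that of the flanks. Each is 101 bases of the plus strand of ce11 (RefSeq WBcel235), 50 bases either side of the summit, and capitals mark runs of 4 or more G or C bases.
dos-3, first summit, chrIII:835881-835981: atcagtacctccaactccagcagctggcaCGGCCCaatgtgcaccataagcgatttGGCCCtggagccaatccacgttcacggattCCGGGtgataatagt
dos-3, second summit, chrIII:836081-836181: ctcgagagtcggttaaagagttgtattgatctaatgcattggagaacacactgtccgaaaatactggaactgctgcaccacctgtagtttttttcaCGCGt
Y70G10A.3, chrIII:10243240-10243340: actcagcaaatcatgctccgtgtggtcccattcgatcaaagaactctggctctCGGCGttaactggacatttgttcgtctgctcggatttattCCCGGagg
mecr-1, chrII:13186268-13186368: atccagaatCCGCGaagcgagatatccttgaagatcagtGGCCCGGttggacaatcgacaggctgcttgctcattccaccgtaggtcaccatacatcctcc
ver-1, chrIII:160079-160179: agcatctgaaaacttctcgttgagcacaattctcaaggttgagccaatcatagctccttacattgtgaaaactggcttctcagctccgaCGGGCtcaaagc
nas-14, chrIV:13172464-13172564: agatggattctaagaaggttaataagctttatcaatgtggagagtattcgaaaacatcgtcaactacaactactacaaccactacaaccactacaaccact
The first dos-3 window held 3 such runs and was 54.5% G+C, against 28.2% in its flanking windows, which are centred 300 bp to either side. The second dos-3 window was 43.6% G+C with 1 run, against 29.7% in its flanks. Those of Y70G10A.3 (50.5% at the summit, against 30.2% in the flanks) and mecr-1 (53.5%, against 40.1%) held 2 runs each. The ver-1 window went the other way, with 46.5% G+C at the summit and 1 run, against 50.99% in its flanks. The nas-14 window held none, was 36.6% G+C, against 34.7% in its flanks, and ended in a repeated stretch of ctacaacca. Of the 20 strongest exonic peaks, 15 had more G+C at the summit than in their flanks. None of the 6 windows held either SIX-type motif searched for, TGATAC or TCAGGTTTC with up to 1 mismatch, on either strand.

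The strongest exonic peak lay in the last exon of dos-3, a member of the C. elegans gene family for DOS-motif proteins that act as Notch co-ligands. Its signal, the authors' own value per peak, was 51.2 in the pooled list, where it was number 23 among autosomal peaks. An overlapping second peak in the same exon had a signal of 36.8, and its summit lay within 1000 bp of the non-coding gene K02F3.13. Both were overlapped by the same strong replicate peaks, which were number 88, 23, 32 and 69 among the nuclear peaks of replicates 1 to 4. The summits of these replicate peaks lay at 836158, 835887, 835991 and 836075 on chromosome III. Replicate 2 held a second, weaker peak there with its summit at 836090, so its own list has a pair as the pooled list does, while the other replicates had 1 peak each. These were the 2 exonic peaks, of 2926, overlapped by the 1000 strongest nuclear peaks of every replicate (0.0684%, 95% exact interval 0.00828 to 0.247). Over all autosomal peaks that share was 0.146%.

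The next in signal was C34C12.2, where the summit lay in an annotated 5′ untranslated exon (signal 43.5). It was overlapped by peaks number 53, 3659 and 54 in replicates 1, 3 and 4 and by none in replicate 2. The dos-3 peak of signal 51.2 and this one were the only exonic members of the authors' thresholded list, made by the irreproducible discovery rate method, which compares how replicates rank peaks. That was 2 of 2926 (0.0684%, interval 0.00828 to 0.247), beside 0.547% of all autosomal peaks, and against 29 promoter peaks, 13 intronic peaks and 12 intergenic peaks. Read as −log10 of q, the deposited column put 0 of 2926 exonic peaks under a q-value of 0.05, beside 0.283% of all autosomal peaks. The lowest exonic q was 0.0569, at dos-3, and the exonic median was 0.939.

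Below these came single genes of varied function, and replicate support differed from gene to gene. The peak of ver-1, a receptor tyrosine kinase related to vertebrate VEGF receptors, had a signal of 37.8. It was number 13 in replicate 2 and was in no other replicate's list, so its support in the lists came from 1 library. The taf-4 peak, in a gene for a subunit of the general transcription factor TFIID, had a signal of 37.5 and ranks of 638, 2107, 9673 and 8903 in replicates 1 to 4. It had the most G+C-rich window of the 20 strongest, with 67.3% at the summit, against 40.1% in the flanks. The grl-26 peak, in a gene for a ground-like protein, had a signal of 38.2 and ranks of 20596, 480, 1756 and 580. Its summit lay within 1000 bp of a transfer RNA gene and of the non-coding gene K02D7.8.

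The peak of mecr-1, which encodes a mitochondrial enoyl reductase of fatty acid synthesis, had a signal of 36.0 and ranks of 1274, 17777 and 1858 in replicates 1, 2 and 4. It was not in the list of replicate 3. The nas-14 peak, in a gene for an astacin-type metalloprotease, had a signal of 34.7. It was number 309 and 209 in replicates 1 and 2 and was in neither of the other lists. The same split was seen at C37H5.14, with a signal of 39.1 and ranks of 533 and 123 in replicates 1 and 2 alone. These 3 peaks had high pooled signal and were in the lists of some replicates but not of others. Over all autosomal peaks, the lists of replicates 1 to 4 overlapped 68.9%, 72.8%, 23.5% and 45.6%. Absence from a list does not show absence of signal, as no read counts were available.

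The remaining hosts among the 20 strongest peaks were F22D3.4, C37C3.1, M01A8.1, Y70G10A.3, F21A3.11, nra-2, ZK643.6, F58B3.6, Y75B8A.24, F58G1.7 and hpo-15, with signals from 33.8 to 39.6. Of these, nra-2 encodes a nicalin-like protein of the endoplasmic reticulum. Among the 20 strongest exonic peaks, 18 were overlapped by the 1000 strongest peaks of at least 1 replicate and 9 by those of at least 2. Over all autosomal peaks, those of replicates 1 to 4 overlapped 6.56%, 7.05%, 4.31% and 4.65%. The 20 were picked by pooled signal from the same libraries, so their overlap follows in part from that choice. In all, 18 had their summit in coding sequence and 4 lay within 1000 bp of a non-coding gene. Over all 2926 exonic peaks these shares were 92.4% and 14.1%. The 4 were the peaks of F22D3.4, grl-26 and F58G1.7 and the second dos-3 peak. Lower in the list, fewer peaks had such overlap. Of the 100 strongest exonic peaks, 20 (20%) were overlapped by the strongest peaks of at least 2 replicates, against 15 of the other 2826 (0.531%); the pooled signal was made from the same libraries, so this describes the list and is no independent check. The strongest peaks of at least 3 replicates overlapped 4 of 2926 exonic peaks. For promoter, intronic and intergenic peaks this was 27 of 3142, 14 of 2339 and 17 of 1837. Those of exactly 2 replicates overlapped 31 exonic, 100 promoter, 47 intronic and 40 intergenic peaks. Beyond dos-3, 2 exonic peaks had 3 replicates in support, and they are named after their values were seen. One lay in a 5′ untranslated exon of din-1, a corepressor that binds the nuclear receptor DAF-12, with ranks of 65, 24607, 344 and 383. The din-1 summit lay within 1000 bp of the non-coding genes F07A11.10 and F07A11.15, the latter a small nucleolar RNA gene. The other lay in the 3′ untranslated region of nstp-10, a nucleotide-sugar transporter family gene, with ranks of 943, 236, 621 and 3232.

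Exonic peaks were spread through the pooled list and thinned out at its top. Their signal ran from 16.4 to 51.2 with a median of 19.2, and their median percentile among autosomal peaks was 46.3. Promoter peaks had a median percentile of 52.6, intronic peaks 49.0 and intergenic peaks 52.8. Exonic peaks made up 6% of the 100 strongest autosomal peaks (interval 2.23 to 12.6) and 18.8% of numbers 101 to 500 (15.04 to 22.9). The share was 24.2% at numbers 501 to 1000, 28.2% at 1001 to 2000, 28.3% at 2001 to 5000 and 30.4% at 5001 to 10000. Exonic sequence outside promoter windows covers 22.0% of autosomal bases, so the share was below that of the sequence, by value, in the first 500 peaks and above it from number 501 on. As every peak of the pooled list enters these shares, they are given without a test.

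**Figure D1:**
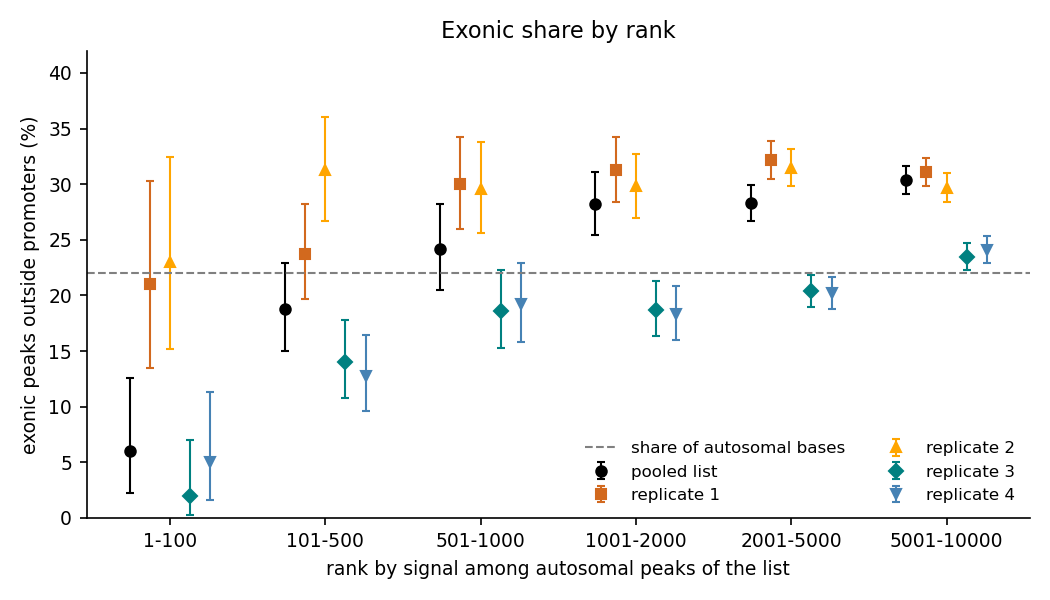
Share of exonic peaks outside promoters (%, y axis) by rank bin of signal among autosomal peaks (x axis), for the pooled list and each replicate, with 95% exact intervals that cover counting error over peaks, and the share of autosomal bases as a dashed line. In the first bin the pooled list is at 6%, with replicates 3 and 4 at 2% and 5% and replicates 1 and 2 at 21% and 23%.

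The question whether exonic peaks are under-represented at the top was also asked in each replicate's own list. Among the 1000 strongest autosomal peaks, exonic peaks made up 26.6%, 29.6%, 15.1% and 15.2% in replicates 1 to 4. Among the weaker peaks of the same lists they made up 30.4%, 29.2%, 21.9% and 23.3%. The share was thus lower at the top in replicates 1, 3 and 4, with differences of −3.83, −6.80 and −8.10 percentage points, and 0.449 points higher in replicate 2. The mean difference was −4.57 ± 3.79 points (SD, n = 4; two-sided exact sign-flip permutation test p = 0.25, Benjamini-Hochberg adjusted 0.25 over 5 tests), which does not pass 0.05. With 4 replicates the smallest p this test can give is 0.125. With the 500 strongest peaks in place of 1000, the mean difference was −7.23 points.

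The replicates fell into pairs by how much exonic sequence their lists held. Exonic peaks were 30.3% and 29.2% of the autosomal peaks of replicates 1 and 2, and 21.3% and 23.0% of those of replicates 3 and 4. At the very top the gap was wider, with 21% and 23% of the 100 strongest in replicates 1 and 2 and 2% and 5% in replicates 3 and 4. The lists themselves also differed: replicates 1 and 2 had 30000 peaks each and lowest signals of 5.54 and 6.57, replicate 3 had 13225 peaks and replicate 4 had 29529, both with a lowest signal of 2.00. The labels give no batch that separates these pairs, and the part of list length in the exonic share was not tested.

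The share of exonic peaks overlapped by the replicates' strongest peaks was lowest in replicates 3 and 4. Its differences from the other classes did not pass the test. The pooled peaks were made from these same libraries, so the overlap is no independent check. The 1000 strongest autosomal peaks of replicates 3 and 4 also held fewer exonic peaks, 15.1% and 15.2%, against 26.6% and 29.6% in replicates 1 and 2. These overlap shares are therefore not separate from the shares compared above. The 1000 strongest nuclear peaks of replicates 1 to 4 overlapped 146, 202, 53 and 55 exonic peaks, which is 4.99%, 6.90%, 1.81% and 1.88%. Over all autosomal peaks the shares were 6.56%, 7.05%, 4.31% and 4.65%. For promoter peaks they were 7.48%, 6.94%, 6.91% and 7.22%, nearly level across replicates. Exonic peaks were below promoter peaks in 4 of 4 replicates, with a mean difference of −3.24 ± 2.50 points (SD, n = 4; exact sign-flip p = 0.125, adjusted 0.208), but in replicate 2 the difference was −0.03 points.

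Intronic peaks were overlapped at 7.31%, 6.50%, 3.55% and 3.98% in replicates 1 to 4. Exonic peaks were below them in replicates 1, 3 and 4 and above them in replicate 2, with a mean difference of −1.44 ± 1.25 points (SD, n = 4; exact sign-flip p = 0.25, adjusted 0.25). Intergenic peaks were overlapped at 6.53%, 8.17%, 4.84% and 5.50%. Exonic peaks were below these in 4 of 4 replicates, with a mean difference of −2.36 ± 1.14 points (SD, n = 4; exact sign-flip p = 0.125, adjusted 0.208). The difference from intronic peaks was −0.747 points without summits near non-coding genes and −0.916 with the 500 strongest peaks. None of these differences passes 0.05, and a p of 0.125 is the smallest possible with 4 replicates.

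**Figure D2:**
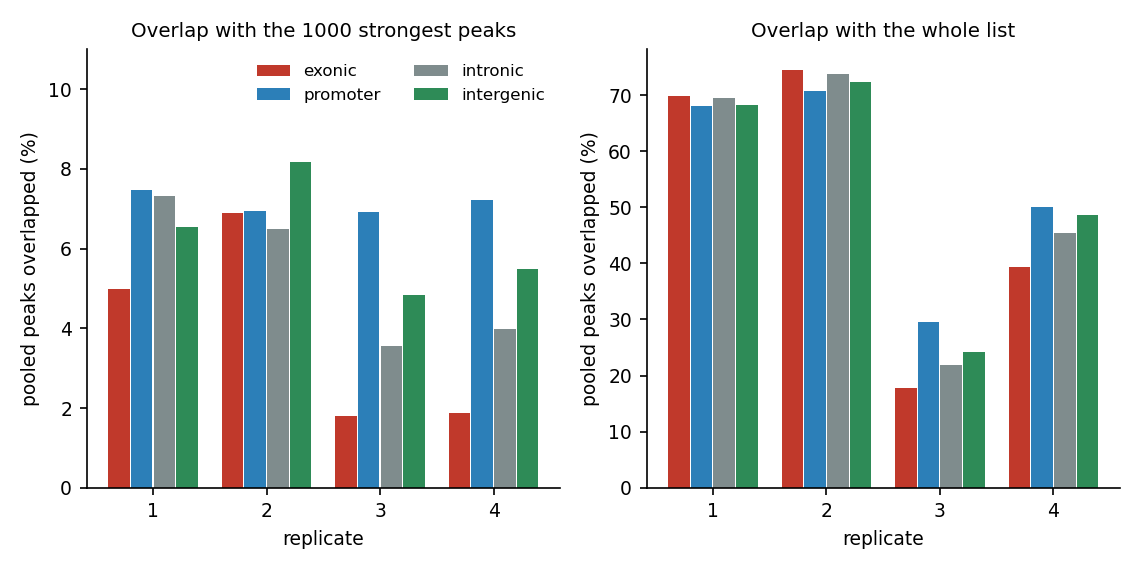
Share of pooled autosomal peaks of each class (%, y axis) overlapped by at least 1 bp by the 1000 strongest nuclear peaks (left) or by the whole list (right) of replicates 1 to 4 (x axis), with exonic peaks as the first bar of each group. Exonic bars are at 1.81% and 1.88% in replicates 3 and 4 on the left, where promoter bars are at 6.91% and 7.22%.

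With whole lists in place of the strongest peaks, 69.8%, 74.4%, 17.8% and 39.3% of exonic peaks were overlapped by replicates 1 to 4. Over all autosomal peaks these shares were 68.9%, 72.8%, 23.5% and 45.6%. Exonic peaks stood above that background in replicates 1 and 2 and below it in replicates 3 and 4, the same pairs as before. All 4 lists overlapped 84 exonic peaks (2.87%, interval 2.30 to 3.54), beside 5.29% of all autosomal peaks. In no replicate's list were 39 of 2926 exonic peaks, beside 43 of 3142 promoter, 31 of 2339 intronic and 19 of 1837 intergenic peaks. The 84 had a median signal of 22.7 and 83.3% had summits in coding sequence, against 17.5 and 94.9% for the 39. Exonic peaks in 1, 2 and 3 lists lay between, with median signals of 18.2, 19.3 and 20.8 and coding shares of 94.6%, 93.7% and 88.2%. As the pooled signal was made from the same libraries, its rise with the number of lists describes the list and is no independent check.

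The replicates' own exonic peaks were also compared in pairs. The 500 strongest exonic peaks of a replicate overlapped those of another at 3.67% ± 0.916 (SD over 6 pairs), the mean of both directions. The highest pair was replicates 1 and 2, at 5.5%, and the other 5 pairs lay between 3.1% and 3.6%. The same value was 9.6% ± 4.07 for promoter peaks, 7.83% ± 2.57 for intronic peaks and 9.6% ± 2.40 for intergenic peaks. The 500 strongest of a class reach unlike depths of a list. Among the 1000 strongest autosomal peaks of replicate 4, for example, 152 were exonic peaks and 424 promoter peaks. For replicates 1 and 2 alone, the value was 5.5% for exonic, 6.9% for promoter, 5.7% for intronic and 10% for intergenic peaks. The depths were not matched, the pairs share replicates, and no difference between classes was tested.

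Most exonic summits lay in coding sequence. It held 2703 of the 2926 (92.4%, interval 91.4 to 93.3), against 88.1% of exonic bases outside promoter windows. The 3′ untranslated regions held 178 (6.08%), against 10.1% of such bases, and 5′ untranslated regions held 30 (1.03%), against 1.25%. A further 15 lay in other exonic sequence. The coding share was 94.0% in the weakest of 4 equal groups of exonic peaks by signal, 92.9% in the second, 91.5% in the third and 91.1% in the strongest.

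By position the exonic peaks lay near the shares of exonic sequence at large in some measures and apart from them in others. The median host exon was 412.5 bp long, against 360 bp for exonic bases outside promoters, and the median distance to the nearest protein-coding start was 1429 bp, against 1388 bp. Chromosomes I to V held 535, 556, 555, 571 and 709 of the peaks, or 18.3%, 19.0%, 19.0%, 19.5% and 24.2%. Their shares of exonic bases were 19.1%, 19.3%, 17.4%, 18.6% and 25.6%, and on chromosome III the interval of the peaks (17.6 to 20.4) lay above the share of bases. Exons of 1000 bp or more held 15.3% of the peaks (interval 14.0 to 16.7), against 12.6% of exonic bases. With each autosome divided into 3 equal lengths, the outer ones held 62.6% (60.8 to 64.4), against 59.9%. Non-coding genes lay within 1000 bp of 413 peaks (14.1%), against 15.3% of exonic bases. Another exonic peak lay within 1000 bp of 326, and 112 overlapped one, as the dos-3 pair did, so neighbouring peaks are not independent.

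At the edges of the promoter window, the medians inside and outside differed in opposite directions. The 138 exonic peaks from 201 to 300 bp downstream of a start had a median percentile of 46.0, and the 195 exon-located peaks left out at 101 to 200 bp had 51.5. The 78 exonic peaks from 1001 to 1100 bp upstream of a start had 48.9, and the 101 left out at 901 to 1000 bp had 40.4.

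Exonic summits averaged more G+C than the sequence around them. In the pooled list, the 101 bases at the summit averaged 43.3% G+C and the flanking windows 38.2%, while exonic bases outside promoters averaged 40.1%. The test used the 1000 strongest exonic peaks of each replicate's own list. Their summits averaged 42.9%, 42.5%, 40.1% and 40.4% in replicates 1 to 4, and their flanks averaged 38.4%, 38.4%, 36.8% and 37.3%. Summits were higher in 4 of 4 replicates, by 3.76 ± 0.631 points (SD, n = 4; exact sign-flip p = 0.125, adjusted 0.208), which is the smallest p possible. Summits of replicates 1 and 2 were above the exonic mean of 40.1%, and those of replicates 3 and 4 were at 40.1% and 40.4%. By the rule the summit had to lie in an exon, while the flanks did not. All intronic bases averaged 32.9% G+C and all intergenic bases 34.4%. The test therefore cannot tell a trait of the peaks from the choice of exonic summits.

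The difference was smaller against flanks that were themselves exonic. Of the flanking windows of pooled exonic peaks, 62.2% were centred in an exon. Against exonic flanks alone the difference was 1.82, 1.25, −0.02 and 0.506 points in replicates 1 to 4. The mean was 0.889 points, higher at the summit in 3 of 4 replicates (exact sign-flip p = 0.25). In the pooled list, the 2459 peaks with an exonic flank averaged 43.2% at the summit and 41.0% in that flank.

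**Figure D3:**
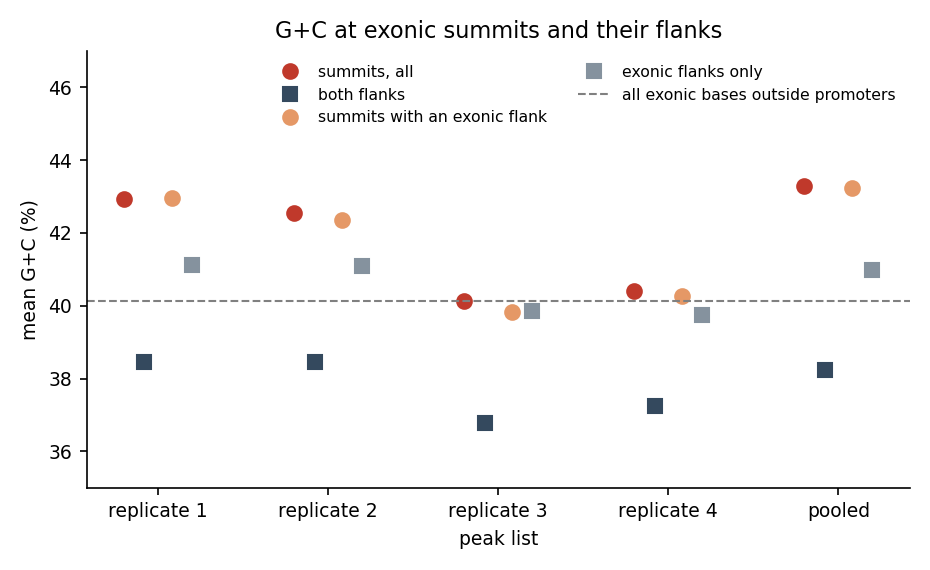
Mean G+C (%, y axis, which does not start at 0) at exonic summits and in their flanking windows, for the 1000 strongest exonic peaks of each replicate and for all 2926 pooled exonic peaks (x axis), first with both flanks and then with exonic flanks only; the dashed line is the mean of all exonic bases outside promoters. Red circles lie above dark squares in every list, while the paler pair nearly coincides in replicate 3.

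In the pooled list, summits of the other classes also averaged more G+C than their flanks. The summit-minus-flank difference there was 5.05 points for exonic peaks, 4.52 for promoter peaks, 4.65 for intergenic peaks and 1.54 for intronic peaks. For the 1000 strongest intronic peaks of replicates 1 to 4 it was 0.957, −0.049, −0.650 and 0.213 points. For promoter and intergenic peaks it was above 0 in every replicate. Within the pooled exonic peaks the difference varied little with signal, from 4.80 points in the second of the 4 signal groups to 5.39 in the strongest. Runs of 4 or more G or C bases, as in the printed dos-3 and mecr-1 windows, were present in 76.2% of exonic peak windows, against 66.1% of their flanks and 67.6% of all exonic windows.

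Exonic summits held less repeated sequence than exons at large. Bases soft-masked as repeats in the reference made up 10.2% of summit windows, against 15.6% of exonic bases outside promoters. A 31-base word found elsewhere in the genome was present in 54 windows (1.85%), against 7.80% of exonic windows. In the replicates' own lists the masked share was 10.8% and 11.4% in replicates 1 and 2 and 15.4% and 15.5% in replicates 3 and 4, so replicates 3 and 4 were at the level of exons at large. The lower masked share in the pooled list was not particular to exonic peaks. Pooled summits of the other classes also held a smaller masked share than all bases of their class. The shares were 23.6% against 34.99% for promoter peaks, 32.4% against 51.9% for intronic peaks and 24.9% against 41.2% for intergenic peaks. How reads that match several places were treated is not stated in the labels or files.

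The SIX-type motifs were about as frequent at exonic summits as elsewhere in exons. TGATAC, on either strand, was in 4.07% of 2926 windows (interval 3.38 to 4.85), against 3.84% of flanks and 4.21% of all exonic windows of that length. TCAGGTTTC with up to 1 mismatch was in 75 (2.56%, interval 2.02 to 3.20), against 3.30% of flanks and 2.85% of all exonic windows. In the replicates' 1000 strongest exonic peaks TGATAC was in 4.7%, 3.1%, 4.1% and 3.2% of windows, on both sides of the exonic level. A match is a string of letters and is not taken as a binding site, and its absence from a window says nothing about the factor.

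The peaks fell in 2437 of the 15775 protein-coding autosomal genes with exonic sequence outside promoter windows (15.4%). A single peak lay in 2058 of them, 301 had 2 peaks and 78 had 3 or more; 10 peaks lay in exons of more than 1 gene and count for each. Genes with a peak had a median of 1522 bp of such sequence, against 799 bp for genes without. Over 10 equal groups of genes by exonic length, the share with a peak climbed from 1.65% in the shortest to 46.0% in the longest. Per length the climb was small, from 12.2 to 18.0 peaks per 100 kb, around an overall 16.1.

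**Figure D4:**
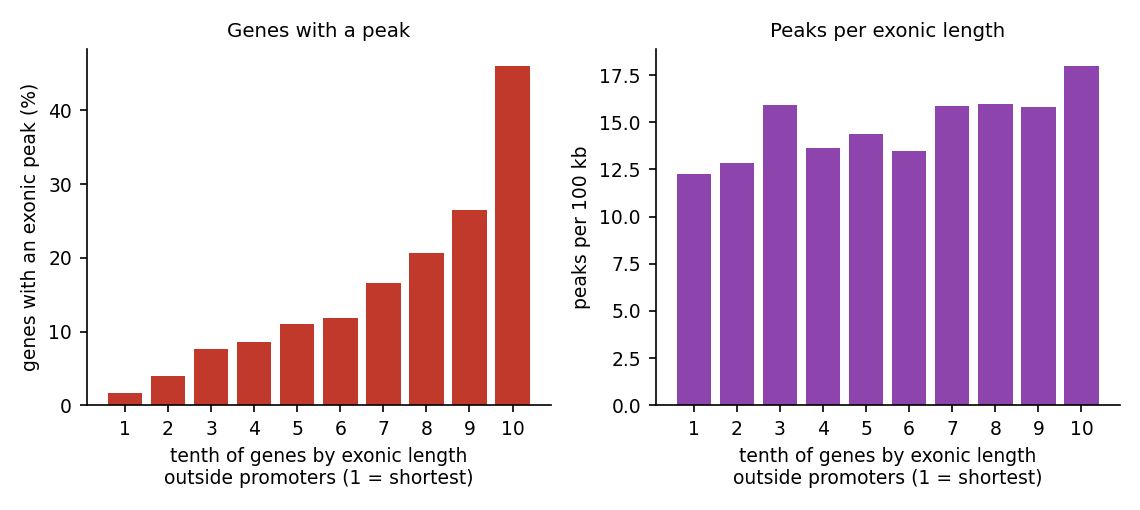
Genes in 10 groups of equal size by exonic length outside promoters (x axis), with the share of genes holding an exonic peak (left, %) and the number of exonic peaks per 100 kb of such sequence (right). The left bars climb from 1.65% to 46.0%, while the right bars stay between 12.2 and 18.0 peaks per 100 kb.

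The genes with most peaks were long ones. let-805, which encodes myotactin, a transmembrane protein of the attachments between epidermis and muscle, had 7 peaks spread over 8483 bp, with signals from 16.4 to 28.5. Per length that is 0.504 per kb. C14B4.2, unc-44 (ankyrin) and unc-68 (the ryanodine receptor, a calcium channel of muscle) had 6 each, and dig-1 (a giant extracellular matrix protein), T22F7.3, unc-22 (twitchin), C25F9.2, unc-52 (perlecan) and unc-89 (obscurin) had 5 each. Per length, C25F9.2 had 1.13 peaks per kb, T22F7.3 had 1.07 and C14B4.2 had 1.07, against 0.127 in dig-1, 0.200 in unc-89 and 0.222 in unc-22. The replicates' own lists held 8, 7, 1 and 1 exonic peaks of C14B4.2 and 6, 7, 0 and 1 of C25F9.2, so these came chiefly from replicates 1 and 2.

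The gene of the tagged protein, unc-39, had no exonic peak outside promoters in the pooled list or in any replicate, over 1204 bp of such sequence. unc-119, the gene mutated in the strain, had 0 in the pooled list and 1, 0, 0 and 1 in replicates 1 to 4.

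Across 21 lists of genes by function, the density of peaks per exonic length was between 0.8 and 1.2 times that of all genes in 10, below this range in 3 and above it in 8. It lay above 1 in the pooled list and all 4 replicates for 3 lists and below 1 throughout for 4. The 3 lists below the range include histones and sperm proteins, which had 0 pooled peaks over short exonic sequence. Sperm proteins are also among the 4 below 1 throughout, with only 1, 0, 0 and 1 peaks in replicates 1 to 4. Chemoreceptor genes, whose products detect odours and other chemicals, were the largest list and stood lowest among lists with any peak. They had 99 peaks in 96 of 1316 genes (7.29%, beside 15.4% of all genes), a density of 0.629 times that of all genes. The ratio was 0.788, 0.788, 0.677 and 0.632 in replicates 1 to 4, below 1 in every replicate. Their strongest peaks were in str-207 (signal 30.5, ranks 997 and 444 in replicates 1 and 2), srx-24 (29.8), srh-99 (27.0) and sre-34 (26.5). Exonic windows of chemoreceptor genes averaged 36.2% G+C, against 39.8% for all genes, and 12.0% of them held a 31-base word found elsewhere, against 7.83%; the part of either in the ratio was not tested.

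F-box, BTB and MATH genes, large families of ubiquitin-ligase adaptors, had 42 peaks in 42 of 388 genes. Their ratio was 0.823 in the pooled list and 0.894, 0.767, 0.761 and 0.846 in the replicates. Their exonic windows averaged 37.2% G+C, and 20.1% held a repeated word. Genes for cytochrome P450, glutathione transferase and UDP-glucuronosyltransferase enzymes, which act on foreign compounds, had 28 peaks in 26 of 170 genes and ratios of 0.938 in the pooled list and 0.924, 0.878, 0.671 and 0.793 in the replicates. The strongest peaks of these lists were in fbxc-52 (signal 29.5), fbxb-65 (29.4), fbxa-150 (26.2) and fbxa-18 (25.3), and in gst-40 (30.5), cyp-33C8 (24.99), ugt-52 (24.2) and cyp-32B1 (23.5).

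Genes of glycolysis and energy metabolism lay above 1 in the pooled list and in every replicate. They had 16 peaks in 12 of 56 genes, 1.92 times the density of all genes (30.8 per 100 kb, exact Poisson interval 17.6 to 49.98). In the replicates the ratio was 1.34, 1.05, 2.26 and 1.58. Their exonic windows averaged 43.7% G+C, against 39.8% for all genes. Named by signal were pck-1 (28.3) and pck-2 (27.0), phosphoenolpyruvate carboxykinases, atp-1 (26.8), a subunit of the mitochondrial ATP synthase, and cts-1 (24.9), citrate synthase. The pck-2 peak was in all 4 lists, at ranks of 2820, 6847, 3558 and 2322, and so was that of cts-1, at 1666, 839, 3167 and 20653.

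Heat shock, chaperone and proteasome genes were also above 1 throughout, with 22 peaks in 18 of 83 genes. The ratio was 1.44 in the pooled list and 1.10, 1.31, 1.96 and 1.27 in the replicates, with windows of 42.1% G+C. The strongest lay in hsp-1, a cytosolic HSP70 chaperone (signal 29.6, ranks of 13676, 188, 5071 and 27359), pdi-3 (27.0) and pdi-1 (26.7), protein disulfide isomerases, and dnj-9 (24.9), a DnaJ-domain protein. Translation and splicing factors had 15 peaks in 13 of 79 genes, and ratios of 1.06 in the pooled list and 1.11, 1.36, 1.24 and 1.46 in the replicates. Among them eef-2, the elongation factor that moves the ribosome along the message, had a signal of 32.1, followed by prp-4 (25.1), rnp-6 (21.0) and rsp-7 (20.7). Cytosolic ribosomal protein genes, which are short, had 5 peaks in 4 of 45 genes: rpl-3 (signal 21.3), rps-18 (20.01), rpl-4 (18.5) and rps-19 (16.7). At 5 peaks their pooled ratio of 2.39 has a wide interval, 12.4 to 89.2 peaks per 100 kb, against 16.0 for all genes, and replicate ratios were 0.954, 1.39, 2.39 and 2.01.

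**Figure D5:**
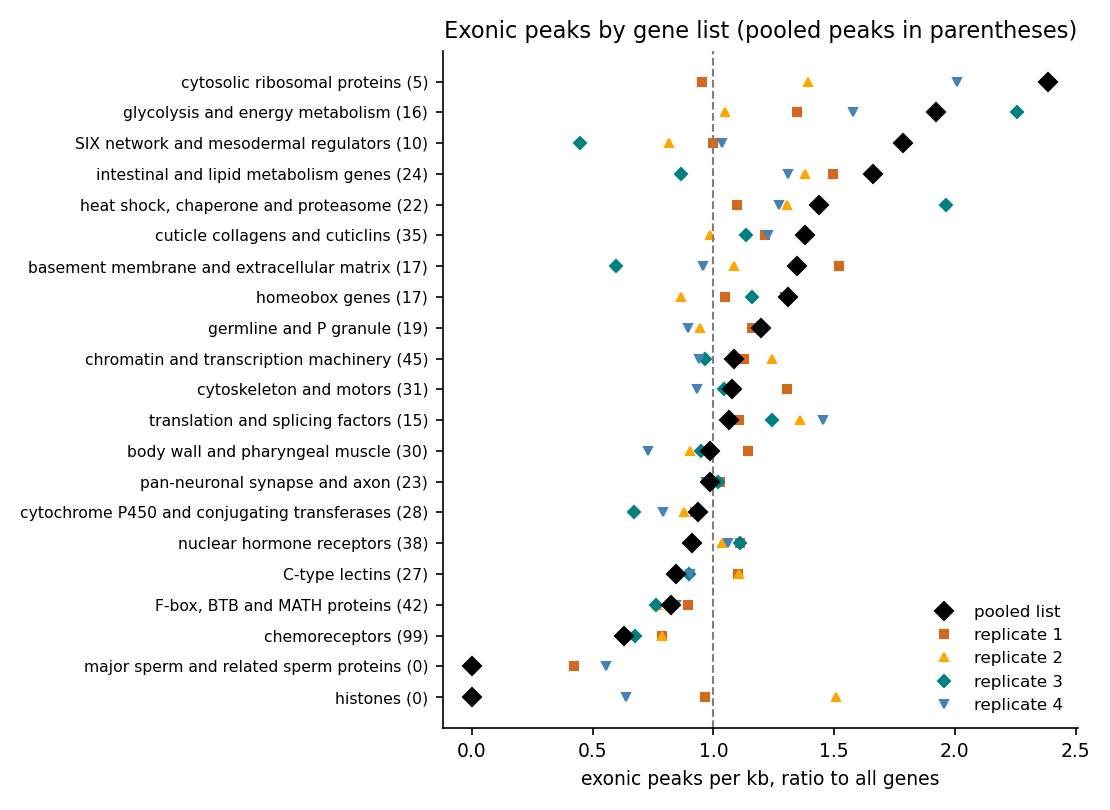
Density of exonic peaks per kb of exonic sequence outside promoters, as a ratio to all genes (x axis), for 21 gene lists (y axis, with the number of pooled peaks in parentheses), in the pooled list (black) and in each replicate's own list (colours). Chemoreceptors lie left of 1 in all 5 lists and glycolysis and energy metabolism right of 1 in all 5, while the SIX-network genes and mesodermal regulators, at 1.79 in the pooled list, lie between 0.448 and 1.03 in the replicates.

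Lists tied to the known roles of UNC-39 lay on both sides of 1 in the replicates. The SIX-network genes and mesodermal regulators had 10 peaks in 9 of 26 genes and a pooled ratio of 1.79, but ratios of 1.00, 0.818, 0.448 and 1.03 in the replicates' own lists. Their strongest peaks were in lin-12 (signal 26.2), a Notch receptor, let-381 (21.2) and pha-4 (20.7), forkhead factors, and tbx-8 (20.3), a T-box factor. Homeobox genes had 17 peaks in 13 of 71 genes, a pooled ratio of 1.31 and replicate ratios of 1.05, 0.866, 1.16 and 1.30, with unc-62 (signal 24.0), ceh-82 (20.9), lin-11 (20.5) and pal-1 (20.3) the strongest. Genes of body wall and pharyngeal muscle had 30 peaks in 11 of 35 genes and ratios of 0.988 in the pooled list and 1.15, 0.904, 0.949 and 0.728 in the replicates. Their strongest were in ttn-1 (titin, 25.5), egl-19 (a calcium channel subunit, 23.4), unc-22 (23.1) and myo-5 (a myosin heavy chain, 22.7). Of 36 genes of neuronal synapse and axon, 14 had 23 peaks, at a ratio of 0.985 in the pooled list and from 0.969 to 1.03 in the replicates; unc-44 (25.9), unc-79 (25.8), unc-33 (25.7) and unc-73 (23.6) led.

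Histone genes (11) and genes for major sperm and related sperm proteins (33) had 0 pooled peaks, over 5.16 and 5.90 kb of exonic sequence, which allows up to 71.5 and 62.6 peaks per 100 kb and so cannot be told from the 16.0 of all genes. The other lists lay on both sides of 1 across the pooled and replicate lists. Among collagen and cuticlin genes, 33 of 172 held 35 peaks (pooled ratio 1.38, replicates 0.985 to 1.23), led by col-142 (signal 24.1). Basement membrane and extracellular matrix genes had 17 peaks in 6 of 13 genes (1.35, replicates 0.595 to 1.52), led by mig-6 (papilin, 24.3). A list of intestinal and lipid metabolism genes, from proteases and yolk proteins to fatty acid enzymes, had 24 peaks in 21 of 92 genes (1.66, replicates 0.866 to 1.49). It was led by acs-5 (28.3) and acs-7 (28.1), acyl-CoA synthetases. Genes of the cytoskeleton and its motors had 31 peaks in 19 of 54 genes (1.08, replicates 0.931 to 1.30), led by dhc-1, the cytoplasmic dynein heavy chain (32.5).

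Germline and P granule genes had 19 peaks in 14 of 60 genes (1.197, replicates 0.895 to 1.18), led by cgh-1, an RNA helicase (23.4). Nuclear hormone receptors had 38 peaks in 34 of 245 genes, with a pooled ratio of 0.911 and replicate ratios of 1.04 to 1.11, led by nhr-6 (28.9). C-type lectins had 27 peaks in 24 of 232 genes (0.844, replicates 0.901 to 1.11), led by clec-8 (28.0). Chromatin and transcription machinery genes had 45 peaks in 32 of 130 genes (1.09, replicates 0.939 to 1.24), led by taf-4 and by chd-7, a chromatin remodeller (32.2). The replicate lists and the pooled list come from the same libraries, so agreement of sign between them is no independent check, and no list was tested.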

How the data were processed

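The analysis started from peak lists in narrowPeak format on ce11, deposited by the authors as a relaxed list for each of the 4 replicates, a pooled relaxed list and a thresholded list. Per the deposited README files, the pooled list was made from all replicates with a control, and the thresholded list by the irreproducible discovery rate. The control experiment named in the labels was not analysed here. No label or file header names the aligner, peak caller, threshold or versions (not given in the sources used here). Signal is the authors' deposited value per peak and was used only within a list. Following narrowPeak usage, the deposited q column was taken to hold −log10 of q. Read depth is unknown, as the files hold no counts.

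Genes came from Ensembl release 115 and sequence from the RefSeq genome WBcel235, the same assembly as ce11; 0 peaks ended beyond a chromosome. Coordinates are 1-based. A summit was the start plus the deposited offset, classed in the order promoter, exon, intron, intergenic. Ranks are by signal among autosomal or, for overlap (at least 1 bp), nuclear peaks. Flanks are windows of 101 bases centred 300 bp to either side. The exonic background was sampled at steps of 10 bp, or 100 bp for gene lists. Outside the gene lists, repeated words and motifs used a sparser sample of exonic windows, 90995 of them for the motifs. Peak density counts peaks per gene over exonic bases outside promoter windows.

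The 5 tests were two-sided exact sign-flip permutation tests over the 4 replicates, with Benjamini-Hochberg adjustment; the scripts were tested on simulated data. Intervals on shares are exact Clopper-Pearson at 95%, those on densities exact Poisson, and both cover counting error only. The labels call the replicates biological but do not say that they came from separate cultures, so p-values measure only the spread between these samples. The members, tests and 21 gene lists were chosen with earlier results of these data known. Named genes are the hosts of the 20 strongest exonic peaks, of those in the thresholded list or in the 1000 strongest of all replicates, the 10 genes with most peaks, up to 4 per list by signal, and unc-39 and unc-119. Alternatives covered the promoter window, coding sequence only, peaks near non-coding genes, shared starts and ends, the number of strongest peaks, the overlap, the windows and flanks, and each replicate left out. Python 3.11.15, numpy 2.4.6, pandas 2.3.3, scipy 1.17.1 and matplotlib 3.10.9 were used.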

Additional observations from a re-analysis of the deposited data

How the results depend on the processing

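In the 72 values recomputed under an alternative, no mean difference changed its direction and no test passed 0.05, which 4 replicates cannot reach. The number of exonic peaks lay between 2264, with a promoter window of 2000 bp, and 3280, with one of 500 bp, and their median percentile between 45.9 and 47.8. The lower exonic share of the strongest peaks moved most with their number, from −7.23 points for the 500 strongest to −3.25 for the 2000 strongest. Leaving out each replicate gave −6.24 to −3.40 points for it. For exonic against promoter, intronic and intergenic peaks, leaving out each replicate gave −4.31 to −2.54, −2.05 to −1.14 and −2.73 to −1.95 points in overlap. Against promoter peaks the exact sign-flip p was 0.125 in the main setting. It was 0.25 with promoter windows of 500 and 2000 bp, with coding sequence only and with the 2000 strongest peaks. With 4 replicates a p above 0.125 means that they did not all lie on the same side. Against intronic peaks the gap was −0.747 points without summits near non-coding genes and −0.916 for the 500 strongest, beside −1.44. The G+C difference was 3.53 to 3.97 points with each replicate left out and 0.889 against exonic flanks alone. Keeping the strongest of summits that share a start and end left all 7 values identical to the main ones, so these 7 of the 72 are no added check. Read depth is unknown, so how far each library's depth limits its weak peaks cannot be given, and relaxed lists hold background as well as peaks. Each test was made on differences within a replicate, and with 1 group there was no pairing of samples between groups to try.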
